A study of Jaculus jaculus with 29 samples.

Results

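Levels of 10 activity-regulated genes were followed across 29 RNA-seq libraries of the supraoptic nucleus of the jerboa, a desert rodent. The genes were the transcription factors Egr1, Egr2, Egr3 and Egr4, the nuclear receptors Nr4a1, Nr4a2 and Nr4a3, the transcription factors Npas4 and Klf2, and the synaptic gene Arc. Their symbols were looked up in the authors' deposited table for dehydration and joined by gene identifier to the count table, which found 8 of the 10 listed symbols among 29170 genes. Egr2 and Egr3 are not named in that table and were placed by the overlap of their gene spans with RefSeq genes of the same assembly. The genes were listed by name, and no measured value entered the rule, but they were chosen with earlier results of these data known.

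The Dehydrated group (10 libraries) was water-restricted for 11 days. The Rehydrated group (9 libraries) was restricted for 7 days and then drank freely for 3 days. The Control group (10 libraries) always had water, and all animals had dry food. Age, strain and genotype are not given in the sources used here. Every library name holds a treatment code, the letter M or F and a number, and values are also given apart for M-named and F-named libraries, which number 5 and 5 in Dehydrated, 5 and 4 in Rehydrated, and 5 and 5 in Control. The sample titles spell this letter out as Male or Female.

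The supraoptic nucleus lies in the hypothalamus, and its magnocellular neurons release vasopressin and oxytocin into the blood. Immediate-early genes such as Egr1, Nr4a1, Npas4 and Arc are transcribed within minutes of calcium entry or growth factor signalling, without new protein synthesis, and their transcripts are short-lived. Osmotic stimulation is well known to induce Fos and Egr1 in rat magnocellular neurons, mostly in acute experiments. Klf2 differs from the others in being best known as a flow-responsive factor of endothelial cells.

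Total counts ran from 10797577 fragments in Control M01, which also had the fewest genes detected (19384), to 18856620 fragments in Dehydrated F04. Control M01 stood apart from all other libraries on the first principal component, at 136.9 against −13.7 to 7.76, and that component held 21.6% of the variance. The name letter went with the library numbers in the column headers of the count table: M-named libraries carry numbers from 1 to 15 and F-named libraries from 16 to 29, apart from Rehydrated M04, which lies outside both runs. Letter and number run therefore cannot be told apart. The letter differs from the sex label in 3 libraries, namely Dehydrated M02 and Control M05, labelled female, and Control F03, labelled male. In these 3 the sample title and the sex label conflict, and which is right is not known. Libraries were treated as coming from different animals, which the labels describe as housed singly but do not tie to libraries, so p-values measure the spread between these libraries. The magnocellular markers, all 9 of them detected, summed to 2275 to 7057 CPM (counts scaled to a common library size) in Dehydrated, 552 to 5362 CPM in Rehydrated and 801 to 3740 CPM in Control libraries. Differences in a tissue punch can come from the number of cells of a type or from the RNA per cell. The latter includes changes in the marker genes themselves, Avp among them. Cell number and RNA per cell cannot be told apart here.

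Per kilobase of exon, Egr1 was the most abundant of the 10 genes and Egr2 the least. Over all 29 libraries Egr1 averaged 18.1 ± 12.7 CPM per kilobase (SD). Klf2 followed at 6.04 ± 3.32, Nr4a1 at 5.28 ± 3.36, Arc at 4.09 ± 1.41 and Nr4a2 at 3.48 ± 1.46 CPM per kilobase. Lower levels were found for Nr4a3 at 2.19 ± 1.23, Egr4 at 1.31 ± 0.507, Egr3 at 0.935 ± 0.540 and Npas4 at 0.782 ± 0.510 CPM per kilobase. Egr2 was lowest at 0.218 ± 0.263 CPM per kilobase. Each neighbouring pair in this order differed by less than the larger of its SDs, except Npas4 and Egr2. These SDs give the spread between libraries, whereas all the genes were measured in the same libraries. They therefore cannot show whether the order of a pair held within single libraries, which was not tested. Egr2 had 0 to 30 fragments per library, was at 0 in 4 libraries and did not pass the filter on low counts, so 9 of the 10 genes were tested among 17558 genes.

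**Figure D1:**
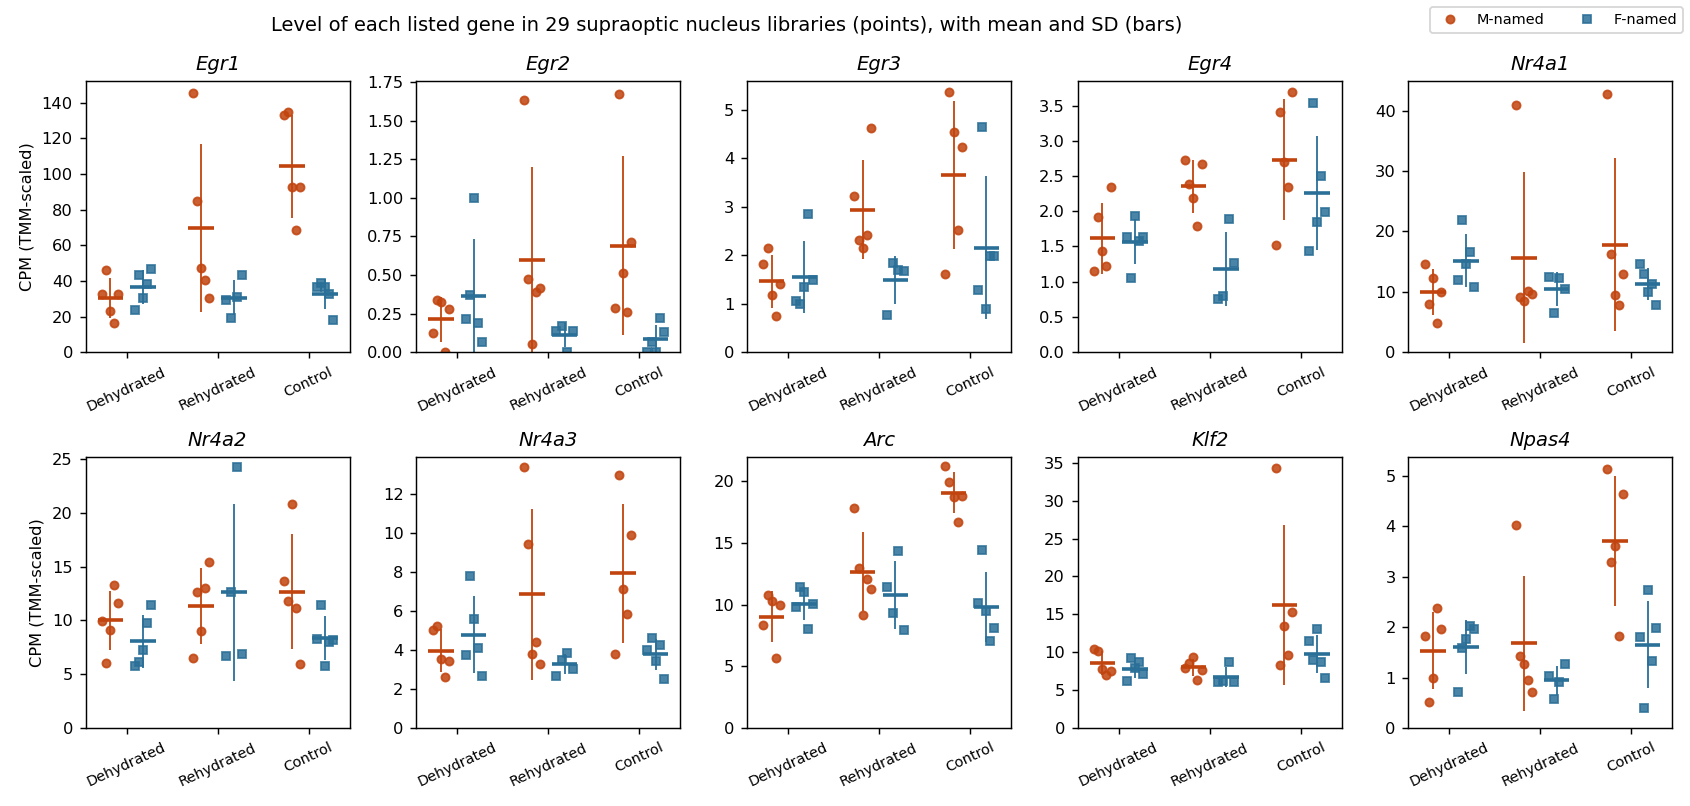
Level of each of the 10 genes in TMM-scaled CPM (vertical axis, linear) in Dehydrated, Rehydrated and Control libraries (left to right), with M-named libraries as circles and F-named libraries as squares; bars give the mean and SD. Egr1 and Arc lie higher in the 5 M-named Control libraries than in every M-named Dehydrated library and every F-named Control library.

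Across the treatments as a whole, every tested gene of the list had a lower estimate in Dehydrated than in Control libraries, but no gene passed the test. In edgeR's quasi-likelihood test with treatment and sex label, 0 of 9 passed an adjusted p of 0.05, where 0.125% of all tested genes did (0.114% with a higher value), and DESeq2 also called 0 of the 9. All 9 log2 differences lay below 0 with a median of −0.54, against a median of −0.003 over all genes, 50.8% of which lay below 0. Unadjusted p-values were under 0.05 for 5 of the 9 and for 6.37% of all tested genes. Egr3 had the lowest estimate, −0.89 ± 0.306 (SE; adjusted p = 0.582), and Arc had the smallest p, with a difference of −0.54 ± 0.178 (adjusted p = 0.529). Egr1 had −0.77 ± 0.326, Egr4 −0.62 ± 0.218, Klf2 −0.56 ± 0.192, Npas4 −0.54 ± 0.341, Nr4a3 −0.28 ± 0.295, Nr4a2 −0.20 ± 0.239 and Nr4a1 −0.14 ± 0.329 on the log2 scale, with adjusted p-values between 0.566 and 0.923. For Nr4a1 the sign was not stable: the difference was 0.13 without Control M01 and 0.0009 without Dehydrated M08.

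No gene of the list passed the test after rehydration either. In Rehydrated against Control, edgeR called 0 of 9 (DESeq2 also 0), where 0% of all tested genes passed, and 8 of the 9 differences lay below 0 with a median of −0.40, against 0.003 over all genes. Unadjusted p-values were under 0.05 for 7.48% of all tested genes and for 3 of the 9: Klf2, at −0.78 ± 0.195 (adjusted p = 0.370), Npas4, at −0.96 ± 0.342 (adjusted p = 0.571), and Egr4, at −0.52 ± 0.225 (adjusted p = 0.617). Nr4a2 alone had an estimate above 0, 0.18 ± 0.243. This comparison uses the same Control libraries as the one for dehydration, so the signs are not independent. In Rehydrated against Dehydrated, 0 of 9 passed in edgeR and in DESeq2, against 0.0228% of all genes, none had an unadjusted p under 0.05 (3.88% of all genes did), and the differences ran from −0.42 for Npas4 to 0.49 for Egr3.

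Within the letters of the library names, 2 of the genes passed the test in M-named libraries and none in F-named libraries. In M-named libraries all 9 estimates were lower in Dehydrated than in Control, with a median log2 difference of −1.01 against 0.0049 over all genes. Egr1 and Arc fell: 2 of 9 passed the edgeR test in the model of treatment by letter, where 0.262% of all genes passed and 0.211% passed with a lower value. In F-named libraries 5 of 9 estimates lay below 0, the median was −0.03, and edgeR and DESeq2 each called 0 of 9, with no unadjusted p under 0.05 among them (4.24% of all genes had one), where edgeR called 0.0626% of all genes (0.057% with a higher value). The difference between these 2 responses, M-named minus F-named, was below 0 for all 9 genes, with a median of −1.12 against 0.0075 over all genes. None of the 9 passed the edgeR test of that difference (0.0513% of all genes did, 0.0399% with a value below 0), 4 had an unadjusted p under 0.05, as did 9.23% of all genes, and DESeq2 called 2 of the 9 and 57 genes in all. With the sex label in place of the letter, 0 of the 9 passed in male-labelled Dehydrated against male-labelled Control libraries.

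**Figure D2:**
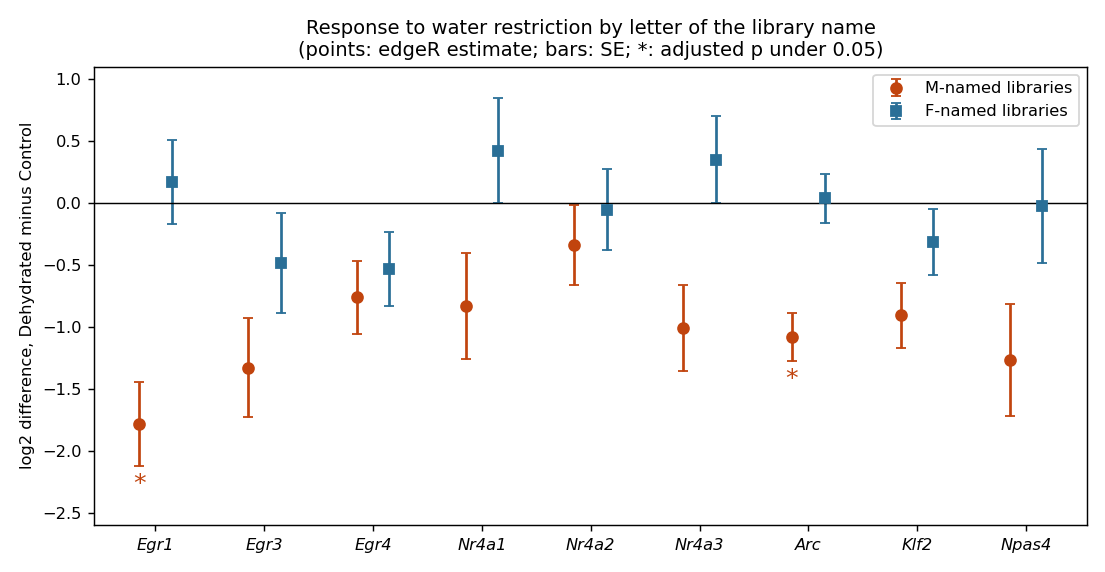
Log2 difference, Dehydrated minus Control (vertical axis), of the 9 tested genes in M-named (circles) and F-named (squares) libraries, with edgeR estimates as points and SE as bars; stars mark an adjusted p under 0.05. All 9 M-named estimates lie below 0, and only Egr1 at −1.79 and Arc at −1.08 carry a star.

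Egr1, a zinc finger factor that links activity to the transcription of neuronal and secretory genes, lies on chromosome 13 at 48074622 to 48078163, minus strand, of mJacJac1. In M-named libraries it had 32.7, 46.1, 23.3, 16.3 and 32.9 CPM in Dehydrated animals, 145.7, 85.1, 47.5, 40.6 and 30.2 CPM in Rehydrated animals, and 133.3, 134.7, 92.8, 68.4 and 92.6 CPM in Control animals. In F-named libraries it had 23.8, 43.4, 30.6, 38.6 and 46.4 CPM in Dehydrated animals, 29.2, 19.2, 30.7 and 43.4 CPM in Rehydrated animals, and 36.5, 38.7, 36.4, 32.9 and 18.2 CPM in Control animals. All M-named Control libraries lay above every other library except Rehydrated M01 and Rehydrated M04, whereas the ranges of the F-named libraries of the 3 treatments overlapped. In M-named libraries Egr1 was 0.290-fold in Dehydrated relative to Control, a log2 difference of −1.79 ± 0.341 (SE; adjusted p = 0.0146), with no overlap between the groups. In F-named libraries its difference was 0.17 ± 0.336 (adjusted p = 1.0). The responses differed by −1.95 ± 0.476 (adjusted p = 0.158 in edgeR, 0.0388 in DESeq2). The call in M-named libraries was lost without Dehydrated M06 (adjusted p = 0.0582), Dehydrated M08 (0.0729) or Control M01 (0.0738), and with the sex label in place of the letter (−1.72, adjusted p = 0.200).

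Egr3 and Egr4, relatives of Egr1 that bind similar GC-rich sites, were less abundant than Egr1 per kilobase. Egr3 lies on chromosome 12 at 13520955 to 13524590, minus strand, and Egr4 on chromosome 6 at 61740701 to 61742615, plus strand. In M-named libraries Egr3 had 1.83, 2.14, 1.18, 0.756 and 1.40 CPM in Dehydrated, 3.21, 2.32, 2.14, 2.41 and 4.62 CPM in Rehydrated, and 1.62, 5.36, 4.53, 2.53 and 4.23 CPM in Control animals. Control M01, at 1.62 CPM, lay among the Dehydrated values, and the other 4 M-named Control libraries lay above all of these. The log2 difference of Egr3 between M-named Dehydrated and Control libraries was −1.33 ± 0.398 (adjusted p = 0.158), and between F-named libraries it was −0.49 ± 0.402 (adjusted p = 1.0). Egr4 had the most similar differences in the 2 sets of libraries, −0.76 ± 0.293 (adjusted p = 0.252) in M-named and −0.53 ± 0.296 (adjusted p = 1.0) in F-named libraries, and the difference between them was −0.23 ± 0.416 (adjusted p = 0.873). Its M-named libraries had 1.16 to 2.35 CPM in Dehydrated and 1.52 to 3.70 CPM in Control animals, and its F-named libraries had 1.05 to 1.94 CPM in Dehydrated and 1.43 to 3.54 CPM in Control animals.

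Egr3 was the only tested gene of the list whose M-named Rehydrated values did not overlap with its M-named Dehydrated values, with Rehydrated the higher, as was the case for 0.490% of all tested genes. The margin was narrow, with 2.14 CPM in Rehydrated M05 and 2.14 CPM in Dehydrated M05 at this rounding. Its difference there was 1.00 ± 0.397 on the log2 scale (adjusted p = 1.0). Egr2, which acts in Schwann cell myelination and in hindbrain patterning and is also induced by activity, lies on chromosome 18 at 6348143 to 6351133, minus strand. It reached 0.998 CPM in Dehydrated F05, 1.63 CPM in Rehydrated M01 and 1.67 CPM in Control M03, and was at or below 0.715 CPM elsewhere.

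Nr4a1, Nr4a2 and Nr4a3 encode orphan nuclear receptors that act without a known hormone. All are induced by cyclic AMP and calcium, and Nr4a2 is in addition expressed steadily in some neuron types, where it sustains their identity. Nr4a1 lies on chromosome 6 at 94868460 to 94894112, plus strand. It had 14.6, 8.05, 12.3, 4.83 and 9.95 CPM in M-named Dehydrated, 40.9, 9.06, 8.503, 10.1 and 9.65 CPM in M-named Rehydrated, and 42.8, 16.2, 9.53, 7.75 and 12.9 CPM in M-named Control animals. Rehydrated M01 and Control M01 lay far above the other libraries, and without these 2 the groups overlapped widely. The difference of Nr4a1 between M-named Dehydrated and Control libraries was −0.83 ± 0.427 (adjusted p = 0.392), and −0.23 without Control M01 and Rehydrated M01. In F-named libraries, which had 10.7 to 21.8 CPM in Dehydrated and 7.81 to 14.6 CPM in Control animals, it was 0.42 ± 0.425 (adjusted p = 1.0).

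Nr4a2 passed no test, and its values overlapped between the treatments. It lies on chromosome 4 at 83582202 to 83589848, plus strand. It had 6.08 to 13.3 CPM in Dehydrated, 6.54 to 15.5 CPM in Rehydrated and 5.96 to 20.8 CPM in Control animals with M-named libraries. The F-named libraries had 5.74 to 11.4 CPM in Dehydrated, 6.67 to 24.2 CPM in Rehydrated and 5.78 to 11.5 CPM in Control animals, and the top value in Rehydrated came from F05. Its log2 differences between Dehydrated and Control libraries were −0.34 ± 0.323 in M-named (adjusted p = 0.633) and −0.05 ± 0.329 in F-named libraries (adjusted p = 1.0). Among the 9 genes it had the smallest difference in M-named libraries.

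Nr4a3 lies on chromosome 1 at 110615512 to 110653580, plus strand. It had 5.00, 5.24, 3.53, 2.62 and 3.41 CPM in M-named Dehydrated, 13.3, 9.40, 3.79, 4.42 and 3.26 CPM in M-named Rehydrated, and 3.81, 12.9, 7.12, 5.83 and 9.89 CPM in M-named Control animals. As for Egr3, Control M01 fell within the Dehydrated range while the other 4 M-named Control libraries lay above it. The difference between M-named Dehydrated and Control libraries was −1.01 ± 0.349 (adjusted p = 0.209), and in F-named libraries it was 0.35 ± 0.353 (adjusted p = 1.0). F-named values were 2.65 to 7.78 CPM in Dehydrated and 2.52 to 4.59 CPM in Control animals. The difference between the 2 responses was −1.36 ± 0.496 (adjusted p = 0.421).

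Npas4, a transcription factor restricted to neurons that responds to calcium entry, lies on chromosome 1 at 161523970 to 161528750, minus strand, and was sparse, with 6 to 78 fragments per library. M-named libraries had 1.83, 0.507, 0.982, 2.39 and 1.96 CPM in Dehydrated, 4.03, 1.43, 1.26, 0.952 and 0.711 CPM in Rehydrated, and 5.14, 3.29, 3.62, 1.83 and 4.65 CPM in Control animals. Of the M-named Control libraries only M05 lay within the Dehydrated range. The difference between M-named Dehydrated and Control libraries was −1.27 ± 0.453 (adjusted p = 0.223), and between M-named Rehydrated and Control libraries it was −1.13 ± 0.450 (adjusted p = 0.407), or −1.76 without Rehydrated M01. F-named libraries had 0.709 to 2.02 CPM in Dehydrated and 0.393 to 2.73 CPM in Control animals, a difference of −0.03 ± 0.463 (adjusted p = 1.0).

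Klf2 lies on chromosome 1 at 220558364 to 220561005, plus strand. It had 10.5, 10.2, 7.72, 6.98 and 7.54 CPM in M-named Dehydrated, 7.95, 8.59, 9.38, 6.38 and 7.70 CPM in M-named Rehydrated, and 34.4, 8.26, 13.4, 9.58 and 15.3 CPM in M-named Control animals. In F-named libraries it had 6.24 to 9.20 CPM in Dehydrated, 6.05 to 8.76 CPM in Rehydrated and 6.62 to 13.1 CPM in Control animals. Control M01 had more than any other library. The difference between M-named Dehydrated and Control libraries was −0.91 ± 0.262 (adjusted p = 0.145), but −0.44 without Control M01 (adjusted p = 0.499), and it passed only without Control M03 (−1.08, adjusted p = 0.0369). Microglial markers were also highest in Control M01, where the 7 markers, none at 0, summed to 403 CPM, against 99.9 to 207 CPM in all other libraries. The 13 endothelial markers, none at 0, summed to 386 to 479 CPM in Dehydrated, 391 to 611 CPM in Rehydrated and 402 to 546 CPM in Control libraries, and none of them passed the test in Dehydrated against Control. Of 8 listed endothelial genes known to respond to KLF2 in human or mouse cells, 6 were found and tested, without Thbd and S1pr1. In edgeR 0 of the 6 passed in Dehydrated against Control, with 4 estimates below 0 and 2 above. Signs were counted without regard to whether KLF2 raises or lowers a gene. Of the 6 genes, 3 had an unadjusted p under 0.05, as did 6.37% of all genes. These 3 were Nos3, the endothelial nitric oxide synthase, at −0.34 ± 0.125 (adjusted p = 0.642), the vasodilator peptide Adm, at −0.68 ± 0.254 (adjusted p = 0.646), and the related factor Klf4, at −0.42 ± 0.162 (adjusted p = 0.669). The vasoconstrictor peptide Edn1 had 0.41 ± 0.240 (adjusted p = 0.792). In M-named libraries 3 of the 6 estimates lay below 0 and 3 above, with a median of −0.04. The part of endothelial or microglial cells in the Klf2 values was not tested.

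Arc is an effector gene, not a transcription factor: its protein acts at synapses in the removal of glutamate receptors. It lies on chromosome 2 at 196556426 to 196559777, plus strand. M-named libraries had 8.35, 10.8, 10.3, 5.70 and 10 CPM in Dehydrated, 17.8, 12.95, 9.16, 12.1 and 11.3 CPM in Rehydrated, and 21.2, 19.9, 18.7, 16.7 and 18.8 CPM in Control animals. F-named libraries had 9.79, 11.5, 11.0, 8.03 and 10.1 CPM in Dehydrated, 11.4, 9.34, 14.4 and 7.97 CPM in Rehydrated, and 10.1, 14.4, 9.47, 7.07 and 8.07 CPM in Control animals. Every M-named Control library lay above every M-named Dehydrated library and above every F-named library, with only Rehydrated M01 reaching into their range. Arc was 0.473-fold in M-named Dehydrated relative to Control libraries, a log2 difference of −1.08 ± 0.195 (adjusted p = 0.00779), and it passed in edgeR with each of the 29 libraries left out in turn. In F-named libraries the difference was 0.04 ± 0.196 (adjusted p = 1.0). The responses differed by −1.12 ± 0.276 (adjusted p = 0.162 in edgeR, 0.0278 in DESeq2). With the sex label in place of the letter, the difference between male-labelled Dehydrated and Control libraries was −0.94 (adjusted p = 0.200). Between M-named Dehydrated and Control libraries Egr1 and Arc were the only 2 tested genes of the list whose values did not overlap, with Dehydrated lower, as was the case for 1.54% of all tested genes, while 1.3% did not overlap with Dehydrated higher.

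Egr1 and Arc were also the genes of the list that passed between M-named and F-named libraries of Control animals. There all 9 estimates were higher in M-named libraries, with a median log2 difference of 0.76 against −0.01 over all genes, and Egr1 and Arc passed the test, where 0.604% of all genes passed and 0.439% passed with a higher value. Egr1 averaged 104.3 ± 28.8 CPM in M-named and 32.5 ± 8.29 CPM in F-named Control libraries (SD, n = 5 each), a log2 difference of 1.68 ± 0.341 in edgeR (SE; adjusted p = 0.0189). Arc averaged 19.1 ± 1.67 CPM in M-named and 9.82 ± 2.83 CPM in F-named Control libraries (SD, n = 5 each), a log2 difference of 0.96 ± 0.196 in edgeR (adjusted p = 0.0189). Values of both genes did not overlap, with M-named higher, as for 1.32% of all tested genes. The call on Egr1 was lost without Control M01 (adjusted p = 0.0612), the call on Arc without Control F05 (0.0618), and both with the sex label in place of the letter (0.307 and 0.371). These comparisons share the M-named Control libraries with those for dehydration.

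In Dehydrated animals no gene of the list passed between the letters: 6 of 9 estimates were lower in M-named libraries, the log2 differences ran from −0.61 for Nr4a1 to 0.32 for Nr4a2, edgeR and DESeq2 each called 0 of the 9, none with an unadjusted p under 0.05 (2.05% of all genes had one), and edgeR called 0% of all genes. In Rehydrated animals 8 of 9 estimates were higher in M-named libraries with a median of 0.83, and edgeR and DESeq2 each called 0 of the 9 (edgeR called 0% of all genes), although 4 had an unadjusted p under 0.05, as did 3.74% of all genes. These 4 were Egr1, at 1.19 ± 0.363 (adjusted p = 0.991), Egr4, at 0.99 ± 0.322 (adjusted p = 0.991), Nr4a3, at 1.06 ± 0.379 (adjusted p = 1.0), and Egr3, at 0.97 ± 0.427 (adjusted p = 1.0). Egr3 alone did not overlap between M-named and F-named Rehydrated libraries, with M-named higher, as for 0.757% of all tested genes. Over all treatments together, M-named libraries had higher estimates for all 9 genes, with a median of 0.41, and 0 of 9 passed in edgeR and in DESeq2 (0.0114% of all genes passed in edgeR), while 7 had an unadjusted p under 0.05, as did 4.98% of all genes.

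**Figure D3:**
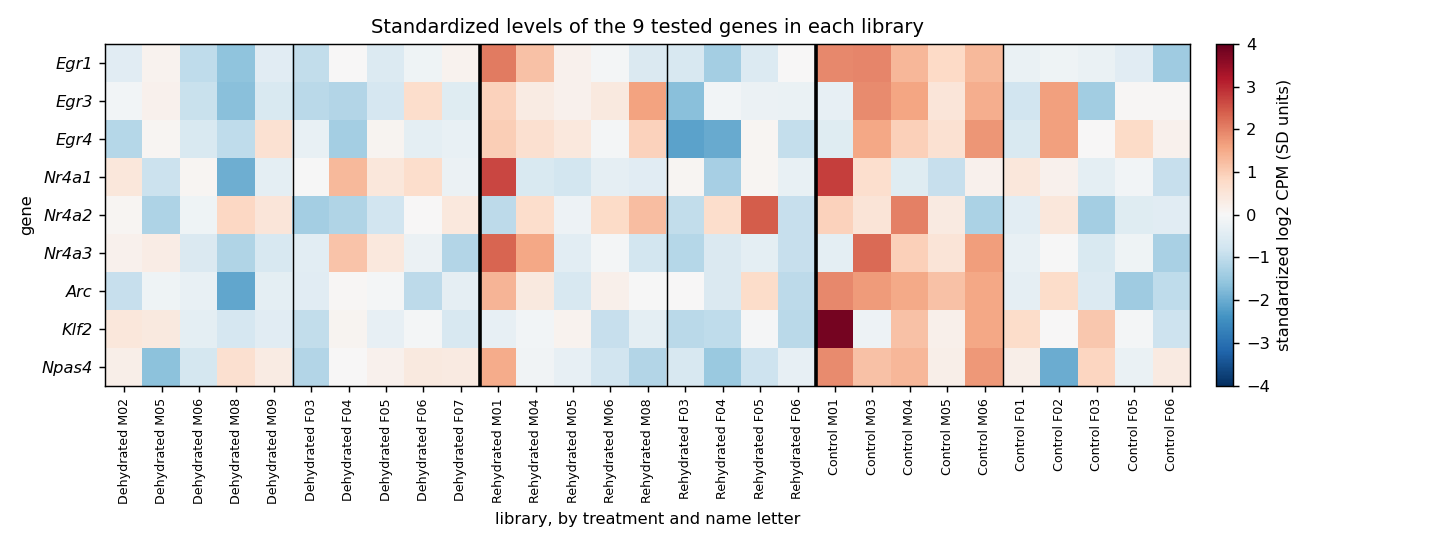
Log2 CPM of the 9 tested genes (rows) in each of the 29 libraries (columns), standardized for each gene in SD units and ordered as Dehydrated, Rehydrated and Control with M-named left of F-named libraries. The M-named Control libraries and Rehydrated M01 hold most of the highest values, and the highest of all is Klf2 in Control M01, at 34.4 CPM.

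Within Rehydrated animals 1 library carried much of the spread. Rehydrated M01 had the highest value of its treatment for Egr1, Egr2, Egr4, Nr4a1, Nr4a3, Arc and Npas4, but not for Egr3, Klf2 or Nr4a2. In M-named libraries, Rehydrated against Dehydrated, Egr1 had a log2 difference of 1.21 ± 0.337 (adjusted p = 1.0), or 0.75 without Rehydrated M01, and Nr4a3 had 0.79 ± 0.348 (adjusted p = 1.0), or 0.39 without it. In Rehydrated against Control, M-named, Egr1 had −0.58 ± 0.330 (adjusted p = 0.519), or −1.04 without Rehydrated M01. Arc and Klf2 had −0.59 ± 0.193 (adjusted p = 0.334) and −1.01 ± 0.262 (adjusted p = 0.265) in the same comparison, in which edgeR and DESeq2 each called 0 of 9 and edgeR called 0.0057% of all genes. In F-named libraries Egr4 had the smallest p in Rehydrated against Control, at −0.94 ± 0.324 (adjusted p = 0.417).

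Other genes of the activity programme were examined in lists chosen for their known roles, but with earlier results of these data known. Of the AP-1 subunits, which pair as Fos and Jun proteins on DNA, 3 of 7 passed with lower values in M-named Dehydrated against Control libraries, and 0 of 7 in F-named libraries. Of all tested genes, 0.211% passed with lower values in M-named libraries, and 0.0626% passed in F-named libraries. In M-named libraries 5 of the 7 AP-1 estimates lay below 0 and 2 above. Over all libraries, Dehydrated against Control, 0 of the 7 passed, where 0.125% of all genes did, with 4 estimates below 0 and 3 above. Fos had 14.05 ± 3.72 CPM in M-named Dehydrated and 59.4 ± 6.43 CPM in M-named Control libraries (SD, n = 5 each), a log2 difference of −2.08 ± 0.251 in edgeR (SE; adjusted p = 4.69e-05). The response of Fos differed between the letters by −2.17 ± 0.350 (adjusted p = 0.0041 in edgeR). Junb had −1.35 ± 0.221 (adjusted p = 0.00345) and Fosb −2.21 ± 0.389 (adjusted p = 0.00664). Of 19 other immediate-early genes 2 passed, both lower: Csrnp1 at −1.03 ± 0.170 (adjusted p = 0.00345), whose response differed between the letters by −1.33 ± 0.241 (adjusted p = 0.0186), and Gadd45g, a stress-induced regulator of cell cycle and DNA demethylation, at −1.16 ± 0.226 (adjusted p = 0.016). With the sex label in place of the letter, 1 of all tested genes passed in male-labelled Dehydrated against Control libraries. For the difference in response 0 of all tested genes passed with the sex label.

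Of 12 inhibitors of MAP kinase signalling and Egr corepressors, 1 passed in M-named libraries, the G protein regulator Rgs2, at −0.80 ± 0.125 (adjusted p = 0.00263). Of 9 genes driven by CREB, 1 passed, the clock gene Per1, at −0.81 ± 0.142 (adjusted p = 0.00664), and its response differed between the letters by −1.24 ± 0.202 (adjusted p = 0.0041). Among all tested genes, 0.211% passed with lower values in M-named Dehydrated against Control libraries, and 0.0399% passed for the difference in response with a value below 0. By sex label, as above, 1 of all genes passed in male-labelled Dehydrated against Control and 0 for the difference in response. The median log2 difference was −0.53 for the AP-1 list, −0.35 for the other immediate-early genes, −0.21 for the inhibitors and −0.22 for the CREB list in M-named libraries, against 0.0049 over all genes. In F-named libraries the same medians were 0.09, 0.13, −0.01 and 0.18, and no gene of the 4 lists passed in edgeR.

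Of 11 later effectors, whose transcripts accumulate after those of the immediate-early genes, 1 passed in Dehydrated against Control over all libraries and it was higher: Pcsk1, a protease that processes prohormones, averaged 328 ± 131 CPM in Dehydrated and 125 ± 36.96 CPM in Control libraries (SD, n = 10 each), a log2 difference of 1.39 ± 0.226 in edgeR (SE; adjusted p = 0.00369). Its estimate in M-named libraries was 1.43 (adjusted p = 0.0571). In F-named libraries another of the 11 passed, the kinase gene Plk2, at 0.82 (adjusted p = 0.0346). Of the 9 magnocellular markers, 3 passed and were higher, among them Avp, which encodes vasopressin, at 1.81 ± 0.368 (adjusted p = 0.0388). Among all tested genes, 0.114% passed with higher values in Dehydrated against Control over all libraries, and 0.057% in F-named libraries. Over all libraries, Dehydrated against Control, the 9 Egr, Nr4a, Npas4, Klf2 and Arc estimates lay below 0, with none past the test.

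**Figure D4:**
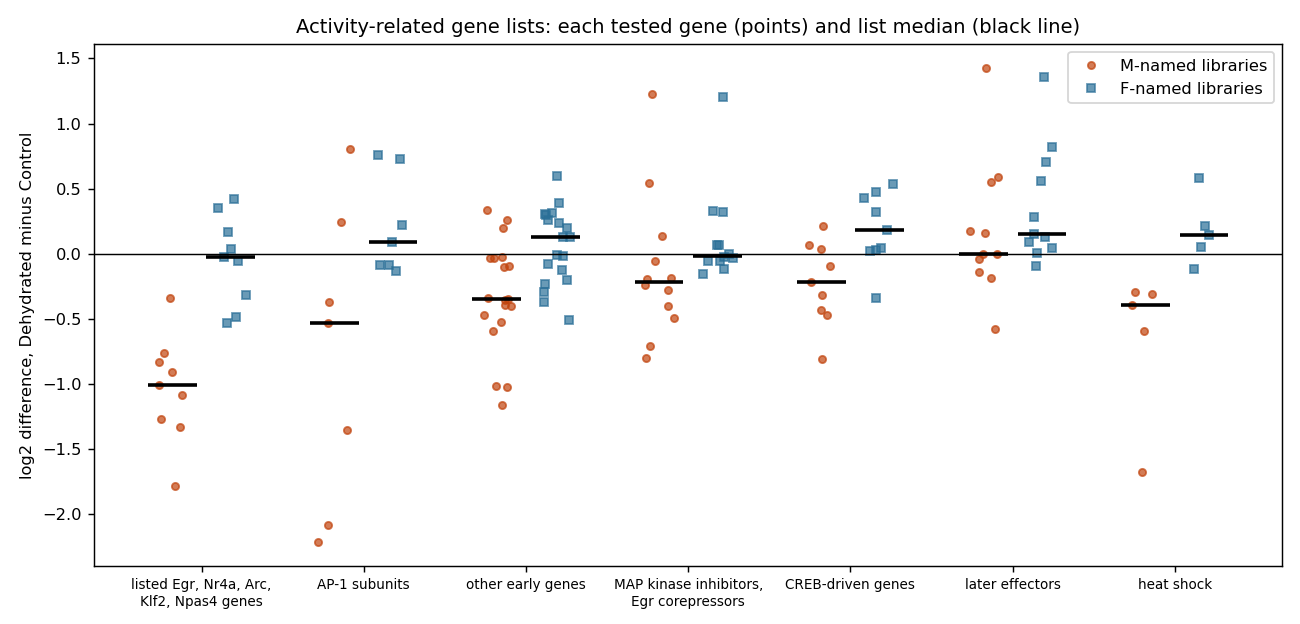
Log2 difference, Dehydrated minus Control (vertical axis), of each tested gene in 7 lists (horizontal axis), in M-named (circles) and F-named (squares) libraries; black lines are list medians. The listed genes have a median of −1.01 in M-named and −0.03 in F-named libraries, and the later effectors have medians of −0.001 and 0.15.

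Of 7 listed heat shock genes 5 were found, without Hspa1a and Hspa1b. These 5, none at 0, summed to 2622 to 3484 CPM in M-named Dehydrated, 3056 to 3528 CPM in F-named Dehydrated, 3499 to 4568 CPM in M-named Control and 2806 to 3260 CPM in F-named Control libraries. In M-named Dehydrated against Control 2 of 5 passed with lower values, the cochaperone Dnajb1 at −1.67 ± 0.192 (adjusted p = 3.57e-05) and Hsph1 at −0.59 ± 0.124 (adjusted p = 0.0343), and in M-named against F-named Control libraries 3 of 5 passed with higher values. Of all tested genes, 0.211% passed with lower values in the former comparison. In the latter, 0.439% passed with higher and 0.165% with lower values. The 8 astrocyte markers, none at 0, summed to 2353 to 3080 CPM in M-named Dehydrated, 2070 to 3065 CPM in F-named Dehydrated, 1609 to 2683 CPM in M-named Control and 2414 to 3991 CPM in F-named Control libraries, and 1 of them, Fgfr3, was lower in M-named than in F-named Control libraries (−0.46 ± 0.108, adjusted p = 0.0423). The 3 blood markers, none at 0, summed to 31.8 to 188 CPM in M-named Dehydrated, 35.1 to 96.9 CPM in F-named Dehydrated, 144 to 807 CPM in M-named Control and 114 to 331 CPM in F-named Control libraries. Blood sums of Dehydrated and Control overlapped in M-named libraries, and in F-named libraries they did not, with Dehydrated lower. The 7 detected markers of neighbouring cortical or striatal neurons summed to 159.5 to 193 CPM in M-named Dehydrated and 113.5 to 157.6 CPM in M-named Control libraries, without overlap. In F-named libraries they summed to 132.5 to 184.4 CPM in Dehydrated and 134.5 to 182.9 CPM in Control, which overlapped. None of the 6 that were tested passed in Dehydrated against Control in M-named or F-named libraries. The part of heat shock genes, astrocytes, blood and neighbouring neurons in the values of Egr1, Arc and the rest of the list was not tested.

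The genes whose pattern over the 29 libraries was most like the mean of the 8 genes named in the deposited table (all of the 9 but Egr3) included Junb, Fos and Fosb of the AP-1 list, Gadd45g of the other immediate-early genes and Dnajb1 of the heat shock list. Pearson's r between a gene's log2 CPM and the mean standardized log2 CPM of these 8 was 0.937 for Junb, 0.880 for Fos, 0.810 for Fosb, 0.808 for Mcl1, 0.799 for Nfkbia, 0.749 for Dnajb1, 0.739 for Gadd45g and 0.704 for Sertad1. Without the 2 libraries farthest from the median, Control M01 and Control M03, these values ran from 0.570 for Sertad1 to 0.913 for Junb. These values are descriptions over libraries that share treatments and name letters.

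Gene by gene, the closest matches differed. Egr1 was closest to Fos (r = 0.910), Egr3 and Egr4 to each other (0.752), Nr4a3 and Arc to Egr1 (0.758 and 0.806) and Npas4 to Chka (0.720). Nr4a2 was closest to Cpne4 (0.803), Mpped2 (0.771) and Igsf1 (0.743), none of which is on the lists of immediate-early genes. Klf2 was closest to Sac3d1 (0.868), Irf9 (0.846) and Ly6e (0.826), and without Control M01 and Control M06 these became 0.785, 0.488 and 0.401. Nr4a1 was closest to Ciita (0.739), which became 0.452 without Control M01 and Rehydrated M01.

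Among themselves the 9 genes were only in part correlated once treatment and letter were removed. Over 36 pairs, with each library's deviation from the mean of its treatment and letter, Pearson's r ran from −0.369 to 0.650 with a median of 0.189, and 24 were above 0. Egr1 and Nr4a1 had the highest r, 0.650 (rho 0.548), or 0.529 without Rehydrated M01 and Rehydrated M08. Egr3 and Egr4 had r = 0.646 (rho 0.615), or 0.517 without Control F02 and Control M01. Nr4a1 and Arc had r = 0.566 (rho 0.604), or 0.503 without Rehydrated M01 and Control M01.

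The authors' deposited tables list 17583 genes and hold 9 of the 10, Egr3 under its identifier only and Egr2 not among them. None of the 9 has an adjusted p under 0.05 in the authors' deposited tables, which call 33 genes higher and 13 lower for dehydration, and 1 higher and 3 lower for rehydration. The lowest adjusted p for dehydration in the authors' deposited table is that of Egr4, 0.214, with a log2 fold change of −0.69, followed by Egr3 with 0.227 and −0.95. For rehydration the lowest in the authors' deposited table is that of Klf2, 0.106, with −0.52. Nr4a1 has 0.13 for dehydration in the authors' deposited table, where edgeR with all 29 libraries gave −0.14. The authors' deposited table has 28 columns of values per library and none under the code of Control M01, and DESeq2 without Control M01 gave 0.13.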

How the data were processed

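Per the file headers, the authors made the deposited counts with featureCounts 1.6.2 as fragments per gene on the Ensembl annotation of mJacJac1, with no strand option, so a gene and an antisense or overlapping neighbour cannot be told apart. For alignment, no tool is named in the sources used here. Per the labels, RNA was polyadenylated and came from punches of frozen sections. The authors' deposited tables give log2 fold changes and p-values, and their names label them as DESeq2 results. The submitters' processing notes name DESeq2 too, with no role stated there. Their 56 columns of values per library were not used here.

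From the counts, genes were filtered with filterByExpr (17558 kept, 11612 removed, holding 0.126% of counts), scaled by TMM and tested with edgeR 4.0.16 in R 4.3.3 over all 29 libraries, with Benjamini-Hochberg adjustment over all tested genes and a threshold of 0.05. Treatments were compared with the sex label as covariate, and letters in a model with treatment or of 6 cells of treatment and letter. CPM used TMM-scaled totals, and SEs were derived from the log2 difference and its F statistic. DESeq2 1.42.0 was an alternative. Correlations were computed in Python 3.11.15 with numpy 2.4.6, and figures used matplotlib 3.10.9. The pipeline was tested on simulated data.

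The deposited tables name 9699 genes, and another 5594 were named by an overlap of at least 0.5 of spans with RefSeq genes of the same assembly. All 10 listed genes are reported; of other lists up to 4 genes with the smallest p were eligible for mention, and the 8 genes most like the mean of the 8 listed genes that the deposited table names and the 3 most like each gene were ranked. The genes, lists and comparisons by letter were chosen with earlier results of these data known. No 2 libraries of the same treatment agreed within sampling noise (chi-square per degree of freedom 8.90 to 162 over 126 pairs). Pairs across treatments were not compared. If the samples of a group were not separate animals, p-values measure only technical spread.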

Additional observations from a re-analysis of the deposited data

Results flagged for a closer look

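Each gene was examined for a library far from the rest of its treatment by Dixon's test in 30 sets of 9 or 10 libraries, and 9 values stood out. Chance flags about 1 in 20 sets if values are normally distributed, which was not tested for these CPM. Each set held M-named and F-named libraries together. Rehydrated M01 held 3 of them, with 1.63 CPM for Egr2, 40.9 CPM for Nr4a1 and 4.03 CPM for Npas4. Control M01 held 2, with 42.8 CPM for Nr4a1 and 34.4 CPM for Klf2. The others were Egr2 in Dehydrated F05 (0.998 CPM) and in Control M03 (1.67 CPM), and Nr4a2 in Rehydrated F05 (24.2 CPM) and in Control M04 (20.8 CPM). The causes were not tested.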

How the results depend on the processing

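Counts of genes past the edgeR threshold, over all tested genes, depended on tool and setting more than the direction of the listed genes did. DESeq2 called 40 genes in Dehydrated against Control, 20 in Rehydrated against Control, 13 in Rehydrated against Dehydrated, 12 between the letters, 57 for the difference between letters in the response to dehydration (2 of them listed genes), 183 in M-named Dehydrated against Control and 439 between letters in Control. DESeq2 without Control M01, an alternative chosen after seeing the data, gave 40, 3 and 16 for the 3 treatment comparisons, with Nr4a1 at 0.13 in Dehydrated and 0.23 in Rehydrated, each against Control. When the fit held just the 2 compared treatments, 11 genes passed in Dehydrated against Control and 1 in Rehydrated against Dehydrated. Between the letters 8 genes passed with no filter on low counts and 0 with letter and sex label in one model.

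With the sex label in place of the letter, 6 genes passed between male-labelled and female-labelled libraries, 0 for the difference in response, 1 in male Dehydrated against Control and 6 between the sexes in Control, with 0 listed genes in the last 2. The estimates that turned, relative to those by letter, were Egr4 in the difference in response (0.046) and Klf2 between male-labelled and female-labelled Dehydrated libraries (−0.028). Egr1 (−0.11), Arc (−0.20) and Npas4 (0.17) turned in female-labelled Dehydrated against Control.

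Same-numbered libraries of different treatments did not deviate together (correlations of −0.115 to 0.11 over 19 pairs, 2 over 0.1), so the numbers were not taken to pair the samples. With the replicate block, 7 genes passed in Rehydrated against Dehydrated, and Nr4a1 turned to 0.34, 0.0476 and −0.29 in Dehydrated against Control, Rehydrated against Control and Rehydrated against Dehydrated. Nr4a3 turned to 0.16 in Dehydrated against Control and −0.22 in Rehydrated against Dehydrated under the block.

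Without Control M01 and Rehydrated M01 together, also chosen after seeing the data, 0 genes passed between the letters, 18 for the difference in response, 29 in M-named Dehydrated against Control and 61 between letters in Control. Nr4a1 then had 0.084 in Dehydrated against Control, −0.30 in Rehydrated against Dehydrated, −0.26 between letters and −0.16 between letters in Rehydrated, and Nr4a3 had −0.15 in Rehydrated against Dehydrated.

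Leaving out each library in turn gave 10 to 27 genes in Dehydrated against Control, 0 to 2 in Rehydrated against Control, 2 to 9 in Rehydrated against Dehydrated, 0 to 6 between letters, 5 to 16 for the difference in response, 21 to 136 in M-named Dehydrated against Control (1 to 3 listed genes) and 37 to 360 between letters in Control (1 to 2 listed genes), the highest of the last pair without Control M03. Estimates that crossed 0 ranged as follows. Nr4a1 ran from −0.27 to 0.13 in Dehydrated against Control, −0.56 to 0.23 in Rehydrated against Control, −0.34 to 0.14 in Rehydrated against Dehydrated, −0.036 to 0.29 between letters and −0.16 to 0.75 between letters in Rehydrated. Nr4a2 ran from −0.062 to 0.35 in Rehydrated against Control, −0.37 to 0.37 between letters in Rehydrated and −0.21 to 0.089 in F-named Dehydrated against Control. Nr4a3 ran from −0.14 to 0.23 in Rehydrated against Dehydrated. In F-named Dehydrated against Control Arc ran from −0.062 to 0.22, Egr3 from −0.82 to 0.0071 and Npas4 from −0.28 to 0.23. Between letters in Dehydrated Egr3 ran from −0.26 to 0.25, Egr4 from −0.12 to 0.15 and Npas4 from −0.29 to 0.15. The cause of these changes was not tested. Low counts kept Egr2 out of the tests.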
